A study of Mus musculus with 8 samples.

Results

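The cytokine genes described here are the IL-12 family (Il12a, Il12b, Il23a, Il27 and Ebi3) with Il6, Il10, Tnf and Il15. They were taken by name as a list of cytokine genes, with earlier results of these data known. Counts and medians of the list set beside all genes therefore describe it and do not test it. The genes are 9 of the 22173 gene symbols in the count tables. Their RNA was measured in mouse macrophages and in tubular epithelial cells (TECs), with and without G-1, a small-molecule agonist of the membrane estrogen receptor GPER1.

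Cytokines of the IL-12 family are pairs of an alpha and a beta chain made from separate genes. IL-12 joins p35 (Il12a) to p40 (Il12b), IL-23 joins p19 (Il23a) to the same p40, IL-27 joins p28 (Il27) to EBI3 (Ebi3), and IL-35 joins p35 to EBI3. Macrophages given LPS and interferon-γ are a known source of IL-12, which drives interferon-γ production by T and NK cells, and of TNF and IL-6, while IL-10 restrains the production of these cytokines and IL-15 sustains NK cells and memory T cells.

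All cells came from wild-type C57BL/6 mice. Bone marrow-derived macrophages were differentiated for 7 days and then kept unstimulated (M0), given 100 ng/ml LPS with 20 ng/ml interferon-γ (M1) or given 20 ng/ml IL-4 (M2) for 48 h, in each case without G-1 or with 10 μmol/L G-1 over the same 48 h. Primary TECs were cultured for 24 h across a porous membrane from M1 macrophages that had been treated with or without G-1 and rinsed beforehand. RNA from 3 samples was pooled into 1 library per group, so the 8 libraries hold no replicates, and a difference within a pair is one between 2 libraries. The counts summed to between 35027179 and 40671596 per library. Levels are given as counts and as CPM (counts scaled to a common library total). A fold between 2 libraries was taken after TMM scaling, and its 95% interval is an exact binomial interval that covers counting error only. Genes that reached 20 counts in either library of a pair counted as measured there, and those that differed by 2-fold or more were called. Where a library had 0 counts, 3 were put in their place, which makes the fold a bound. This bound is not a 95% limit, since it leaves out counting error in the other library. The tubular epithelial markers summed to 5949 and 6619 CPM in the TEC libraries and to at most 0.827 CPM in a macrophage library. All 10 macrophage markers were counted in all libraries, summing to 11050 to 45110 CPM in macrophages and to 219 and 140 CPM in TECs (139.5 with G-1).

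The promoters of Il12b, Tnf, Il6 and Ebi3 are shown, Il12b and Tnf because the comparisons that follow set them against each other, and Il6 and Ebi3 because of a match that they share. Each is the 250 bases before the RefSeq gene start on GRCm38.p6, 5′ to 3′ on the strand of the gene. Capitals mark matches to the NF-kappaB motif, the AP-1 motif TGANTCA, the C/EBP motif TTNCNNAA and the TATA box TATAAA, searched on both strands except for the TATA box, which was read on the strand of the gene. None of the capitals overlap another match.
Il12b, chr11:44399813-44400062, plus strand: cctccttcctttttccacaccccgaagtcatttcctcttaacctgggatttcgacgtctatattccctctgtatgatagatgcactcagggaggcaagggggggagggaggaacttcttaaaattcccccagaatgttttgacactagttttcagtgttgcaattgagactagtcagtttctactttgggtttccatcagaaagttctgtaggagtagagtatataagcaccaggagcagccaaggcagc
Tnf, chr17:35202008-35202257, minus strand: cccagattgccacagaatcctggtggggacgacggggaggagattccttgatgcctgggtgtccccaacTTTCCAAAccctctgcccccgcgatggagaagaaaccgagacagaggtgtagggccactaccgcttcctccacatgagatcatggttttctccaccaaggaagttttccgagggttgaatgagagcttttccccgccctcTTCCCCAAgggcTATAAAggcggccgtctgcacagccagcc
Il6, chr5:30012864-30013113, plus strand: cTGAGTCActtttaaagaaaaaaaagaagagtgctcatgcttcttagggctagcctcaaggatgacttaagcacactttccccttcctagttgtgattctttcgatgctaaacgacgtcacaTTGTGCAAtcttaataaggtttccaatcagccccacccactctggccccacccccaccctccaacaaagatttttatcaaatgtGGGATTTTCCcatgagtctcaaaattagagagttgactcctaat
Ebi3, chr17:55952373-55952622, plus strand: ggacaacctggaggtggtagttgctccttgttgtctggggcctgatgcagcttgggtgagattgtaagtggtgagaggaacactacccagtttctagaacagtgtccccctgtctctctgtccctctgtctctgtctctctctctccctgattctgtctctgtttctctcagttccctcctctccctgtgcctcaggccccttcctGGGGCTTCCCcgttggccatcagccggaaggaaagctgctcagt

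An NF-kappaB match lay at the same place, 44 to 35 bases before the start, in Il6 and in Ebi3, and 7.25% of all 32851 promoter windows held one. Il6 also held an AP-1 match (in 6.75% of windows) and a C/EBP match (36.8%). Tnf held C/EBP matches from 181 and from 41 bases before its start and a TATAAA from 29 bases before it (7.59%). The core of the interferon-stimulated element, present in 2.98% of windows, was found in none of the windows read for Il12a, Il12b, Ebi3, Il6 and Tnf. Il12b and both start sites of Il12a held no match to these letters, which says only that they are absent from these windows. Windows were read for 5 of the 9 genes, and Il23a, Il27, Il10 and Il15 were not searched.

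The 3′ untranslated regions share a feature that was not used to choose the genes and was examined after their values were known. AU-rich elements, repeats of ATTTA, are known to shorten the life of cytokine mRNAs. Per kilobase of 3′ UTR, Il27 held 17.5 ATTTA, Il12a 12.1, Tnf 10.5, Il23a 9.13, Il10 8.50, Il12b 7.53 and Il6 6.0, against a median of 1.35 over 19833 genes. Ebi3 and Il15 held 4.08 and 3.55. The nonamer TTATTTATT, a stronger form that 8.02% of genes carry, occurred 5 times in Tnf, 2 times in Il27 and once each in Il12a and Il23a. A stretch of 30 bases from each is given on GRCm38 with the nonamers, overlapping ones joined, in capitals. A nonamer that runs past the last base is shown in part.
Tnf, chr17:35199681-35199710, minus strand: ttaTTATTTATTATTTATTTATTATTTATT
Il27, chr7:126589070-126589099, minus strand: tatTTATTTATTtttaagaaatggtTTATT
Il12a, chr3:68698443-68698472, plus strand: tatTTATTTATTttctatttattataatat
Il23a, chr10:128296176-128296205, minus strand: tggTTATTTATTctatttataaggaattat
In these 4 windows Tnf stands out by its overlapping copies. The part of these elements in the folds was not tested, and mRNA half-life was not measured.

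In M1 macrophages both IL-12 chains were far lower with G-1, Il6 and Il23a were lower by a little over 2-fold, and Tnf was higher by less than 2-fold. Il12b had 2689 counts in the M1 library and 61 with G-1, 39.3-fold lower (95% interval 30.5 to 51.6). Il12a had 4875 and 225 counts, 19.3-fold lower (16.9 to 22.2). Tnf had 17126 and 24961 counts, 1.63-fold higher (1.60 to 1.67). With the trend of folds with transcript length subtracted, described below, Tnf was 1.13-fold higher. All 9 genes were measured in this pair, of which 5 were called lower and 0 higher, where 12.1% of the 11064 genes measured were lower and 9.44% higher. Il10, at 55 and 0 counts, was measured only through the library without G-1, so it could not be called higher. The median log2 fold was -1.17 over the 9 genes and -1.33 over the 5 of the IL-12 family, beside 0.00 over all genes measured.

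**Figure D1:**
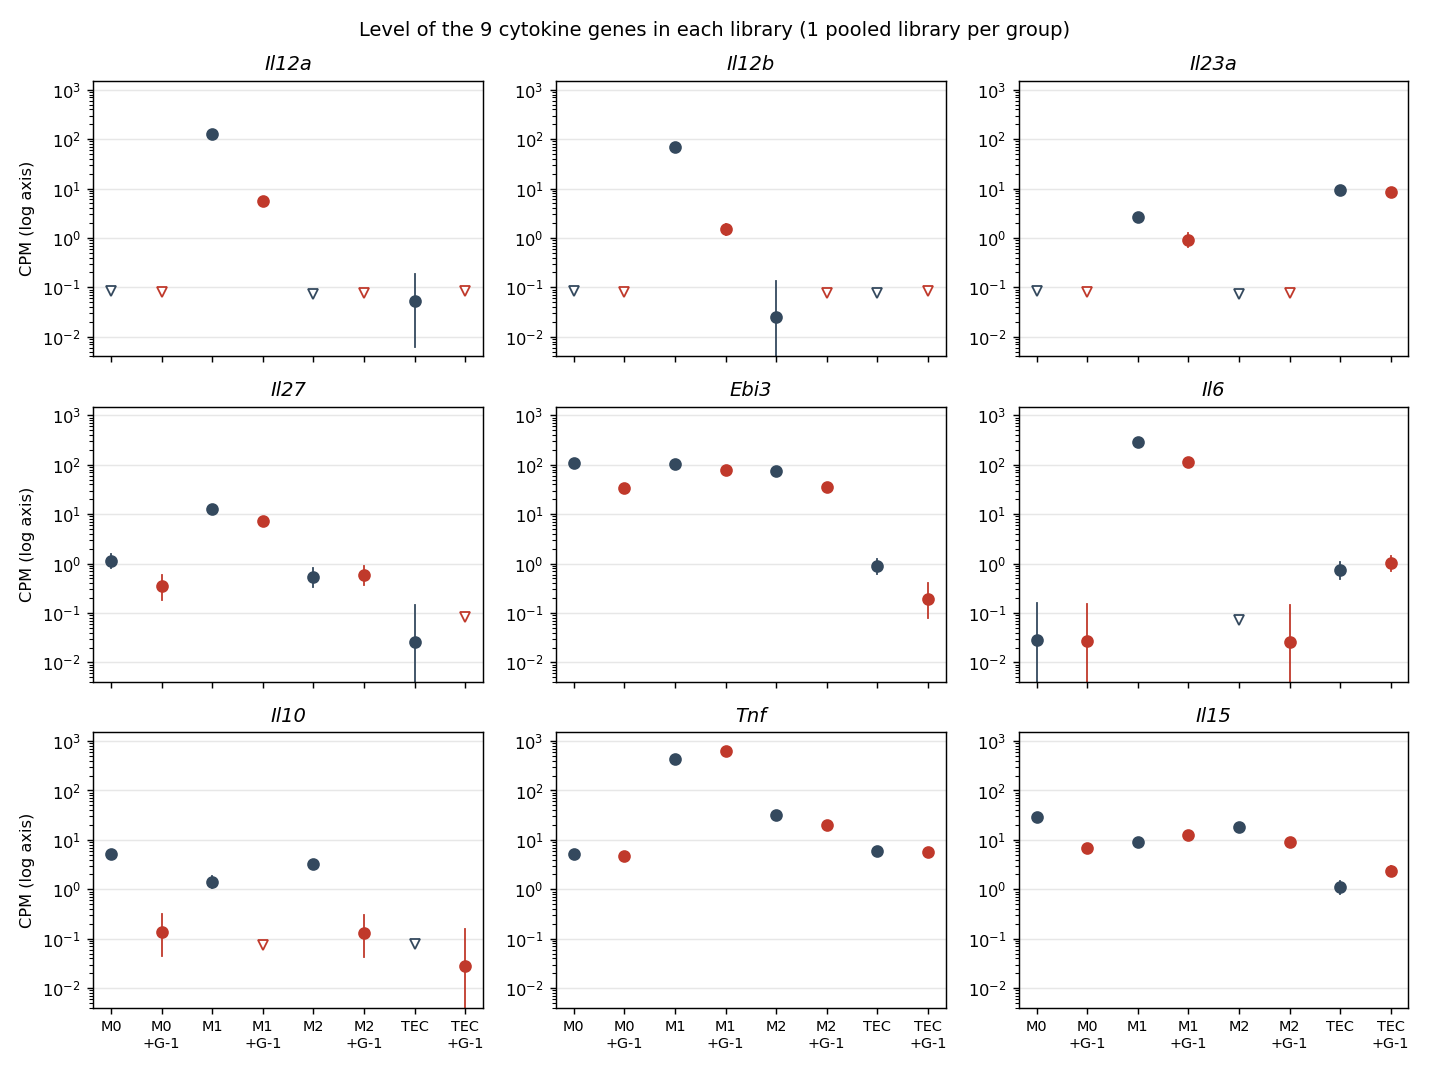
Level of each gene in the 8 libraries, in CPM on a log axis, without G-1 in dark blue and with G-1 in red. Each point is 1 pooled library, vertical lines are exact 95% counting intervals, and open triangles mark libraries with 0 counts, drawn at the level of 3 counts. Il12a and Il12b stand at 124 and 68.6 CPM in the M1 library and at 5.59 and 1.52 CPM with G-1, while Tnf stands at 437 and 620 CPM.

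Il12b encodes p40, the chain shared by IL-12 and IL-23, and lies on chromosome 11 of GRCm38 from 44400063 to 44414033. Its counts were 0 in M0, 0 in M0 with G-1, 2689 in M1, 61 in M1 with G-1, 1 in M2, 0 in M2 with G-1 and 0 in both TEC libraries. Il12b was thus read in the M1 libraries almost alone.

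Il12a encodes p35 (chromosome 3, 68690644 to 68698547). It had 0 counts in the 4 M0 and M2 libraries, 4875 in M1, 225 in M1 with G-1, 2 in TECs and 0 in TECs beside macrophages pretreated with G-1. Like Il12b, it separated the M1 libraries from the rest, and the M1 library without G-1 from the one with it.

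Il23a encodes p19 (chromosome 10, 128296139 to 128298752). In macrophages it was read only in M1, with 104 counts without G-1 and 37 with it, 2.51-fold lower (1.71 to 3.76). In TECs it had 356 and 311 counts, or 9.26 and 8.56 CPM. Il23a was the member with higher CPM in TECs than in any macrophage library, and the TEC pair differed by a log2 fold of -0.12, with an interval of -0.35 to 0.10 that includes 0.

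Il27 encodes p28, the alpha chain of IL-27 (chromosome 7, 126589010 to 126594941). It had 40 counts in M0, 13 in M0 with G-1, 495 in M1, 291 in M1 with G-1, 22 in M2, 23 in M2 with G-1, 1 in TECs and 0 in TECs with G-1-pretreated macrophages. With G-1 it was 1.52-fold lower in M1 (1.31 to 1.76) and 2.92-fold lower in M0 (1.53 to 5.94), and in M2 the log2 fold of 0.13 had an interval of -0.78 to 1.04. Il27 shares 103 exonic bases with Apobr on the opposite strand. Apobr had 4707 to 9662 counts in macrophages, and whether the counting used strand is not given in the sources used here, so the counts of Il27 are uncertain. Apobr had 8801 and 9662 counts in the M1 pair, where Il27 was lower.

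Ebi3 encodes the beta chain of IL-27 and IL-35 (chromosome 17, 55952640 to 55957022). It had 3848 counts in M0, 1245 in M0 with G-1, 4062 in M1, 3208 in M1 with G-1, 3093 in M2 and 1398 in M2 with G-1. TECs held 34 and 7 counts. Unlike the other chains, Ebi3 was abundant in every macrophage state, and the libraries with G-1 were lower in each pair: 2.93-fold in M0 (2.75 to 3.13), 2.12-fold in M2 (1.99 to 2.26) and 1.13-fold in M1 (1.08 to 1.18). An antisense gene, Gm16712, shares 270 exonic bases with Ebi3 and was not used here.

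Il6 encodes interleukin-6, which signals through gp130 (chromosome 5, 30013114 to 30019981). It had 1 count in M0, 1 in M0 with G-1, 11531 in M1, 4588 in M1 with G-1, 0 in M2 and 1 in M2 with G-1. TECs held 28 and 37 counts, a log2 fold of 0.47 with an interval of -0.28 to 1.24. In the M1 pair Il6 was 2.24-fold lower with G-1 (2.17 to 2.32), a smaller fold than for either IL-12 chain.

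Il10 encodes the anti-inflammatory cytokine of the list (chromosome 1, 131019845 to 131024974). Its counts were 181 in M0 and 5 with G-1, 55 in M1 and 0 with G-1, and 130 in M2 and 5 with G-1. All 3 macrophage libraries without G-1 lay above all 3 with G-1. Il10 was 34.3-fold lower with G-1 in M0 (14.4 to 107), at least 16.4-fold lower in M1 and 24.9-fold lower in M2 (10.4 to 78.1). In TECs it had 0 and 1 counts.

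Tnf (chromosome 17, 35199381 to 35202007) had 178 counts in M0, 173 in M0 with G-1, 17126 in M1, 24961 in M1 with G-1, 1314 in M2, 775 in M2 with G-1, 225 in TECs and 209 in TECs with G-1-pretreated macrophages. The M1 libraries stood far above the rest, M2 came next, and M0 and TECs were low. With G-1 it was 1.63-fold higher in M1 and 1.63-fold lower in M2 (1.49 to 1.78). The log2 fold was 0.04 in M0, with an interval of -0.27 to 0.35, and -0.04 in TECs, with an interval of -0.31 to 0.24.

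Il15 (chromosome 8, 82331632 to 82403222) had 1039 counts in M0, 251 in M0 with G-1, 348 in M1, 516 in M1 with G-1, 731 in M2, 349 in M2 with G-1, 42 in TECs and 87 in TECs with G-1-pretreated macrophages. It was highest in the unstimulated library without G-1. With G-1 it was 3.92-fold lower in M0 (3.42 to 4.52) and 2.01-fold lower in M2 (1.77 to 2.29), but 1.66-fold higher in M1 (1.45 to 1.91) and 2.18-fold higher in TECs (1.49 to 3.22). The TEC fold was 1.95 with the trend of folds with transcript length subtracted, under the call of 2-fold, and neither TEC count reached a filter of 100.

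**Figure D2:**
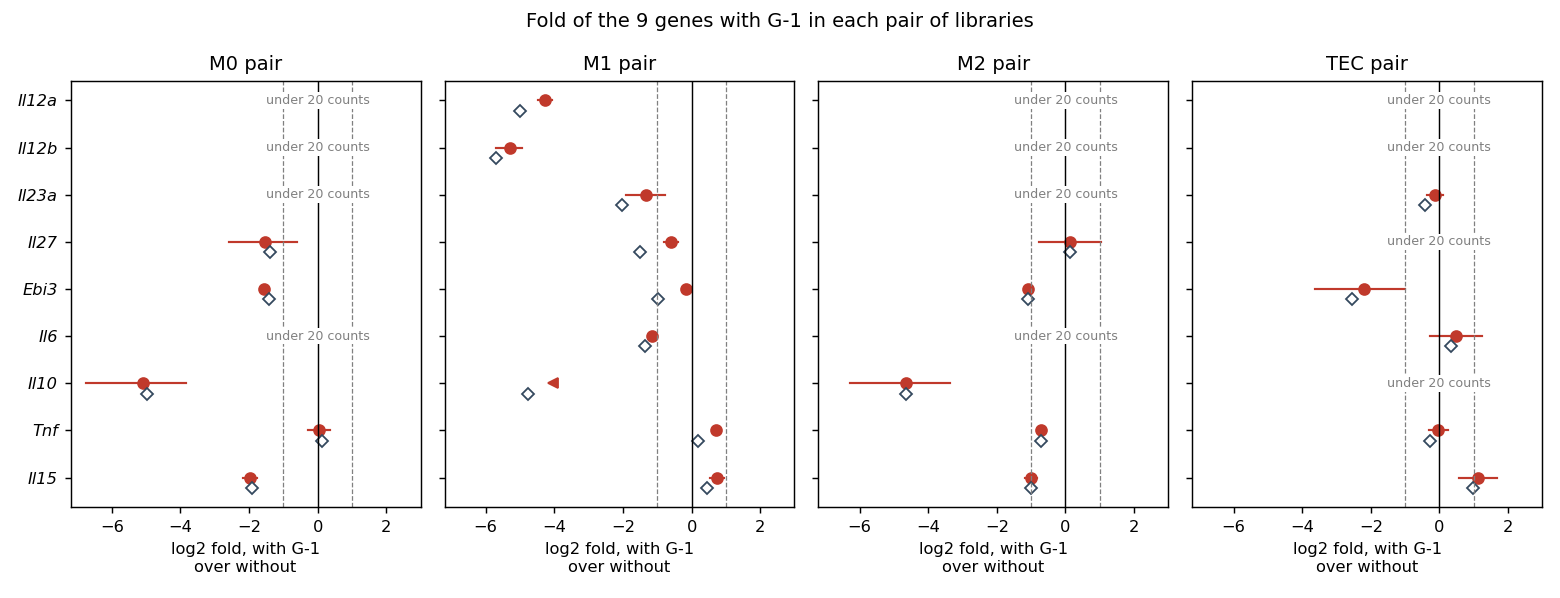
Log2 fold with G-1 over without, in each of the 4 pairs of libraries. Red points carry exact 95% counting intervals (horizontal lines), the red triangle for Il10 in M1 is a bound from a floor of 3 counts, open diamonds show the value after the trend with transcript length was subtracted, and dashed lines mark 2-fold. Il10 lies at -5.10 in M0 and -4.64 in M2, Il12b at -5.30 in M1, and Tnf at 0.71 in M1 and -0.70 in M2.

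In the M0 pair 5 genes were measured, of which 4 were called lower (Il10, Il15, Ebi3 and Il27) and 0 higher, where 12.6% of all genes measured were lower and 12.2% higher. In the M2 pair 3 of 5 were called lower (Il10, Ebi3 and Il15) and 0 higher, where 7.78% were lower and 5.95% higher. Il10 in both pairs and Il27 in M0 had under 20 counts with G-1. They were measured only through the library without it, so they could not be called higher. In the TEC pair Ebi3, at 34 and 7 counts, was called lower (4.63-fold, 2.02 to 12.4) and Il15 higher, of 5 measured, where 2.82% were lower and 1.39% higher. Ebi3 was measured there only through the library without G-1, so it could not be called higher. Macrophage markers moved with these results. They summed to 40450 CPM in M0 and 11050 with G-1 (5 of 10 called lower), to 18380 and 12450 in M1 (3 of 10 lower, Mertk, Itgam and Adgre1, and Cd68 5.74-fold higher), and to 45110 and 21550 in M2 (3 of 10 lower). Their part in the cytokine folds was not tested, and in bulk RNA fewer cells of a type and less RNA per cell cannot be told apart.

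The folds of the M1 pair ran with transcript length, with a median log2 fold of 0.72 over the shortest genes and -0.66 over the longest, each a quintile of the measured genes. With this trend subtracted, the log2 folds in M1 became -4.99 for Il12a, -5.69 for Il12b, -2.04 for Il23a, -1.50 for Il27, -0.98 for Ebi3, -1.35 for Il6, 0.18 for Tnf and 0.45 for Il15. The fold of Tnf was closer to 0 with the trend subtracted, and those of the 5 IL-12 family genes and Il6 were further from it. The part of RNA quality in the trend was not tested.

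Ratios between genes of 1 library need no scaling between libraries. In the M1 library Il12a counts were 28.5% of those of Tnf, and 0.901% with G-1, a ratio 31.6-fold lower (exact 95% interval 27.6 to 36.3). Il12b counts were 15.7% and 0.244% of Tnf, 64.2-fold lower (49.9 to 84.4). Il6 counts were 67.3% and 18.4% of Tnf, 3.66-fold lower (3.52 to 3.81). Relative to Tnf, both IL-12 chains were thus lower by more than Il6.

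Among the other chains the ratio to Tnf was 4.10-fold lower for Il23a (2.79 to 6.14), 2.48-fold lower for Il27 (2.14 to 2.88) and 1.85-fold lower for Ebi3 (1.75 to 1.94). The intervals of all 5 IL-12 family genes lay on the same side of 1. A gene with no difference would also have a lower ratio, since Tnf was 1.63-fold higher with G-1. Ebi3 and Il27 themselves were 1.13-fold and 1.52-fold lower. Il15 was level with Tnf in counts, at 2.03% and 2.07% of the Tnf counts, with a ratio of 1.02 (0.885 to 1.17). With the length trend subtracted, the log2 folds of Il15 and Tnf were 0.45 and 0.18. Tnf itself differed between the libraries, and with Il6 as the reference in its place the ratios of Il12a and Il12b were 8.62-fold and 17.5-fold lower with G-1, that of Il23a 1.12-fold lower, and those of Il27 and Ebi3 were higher.

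**Figure D3:**
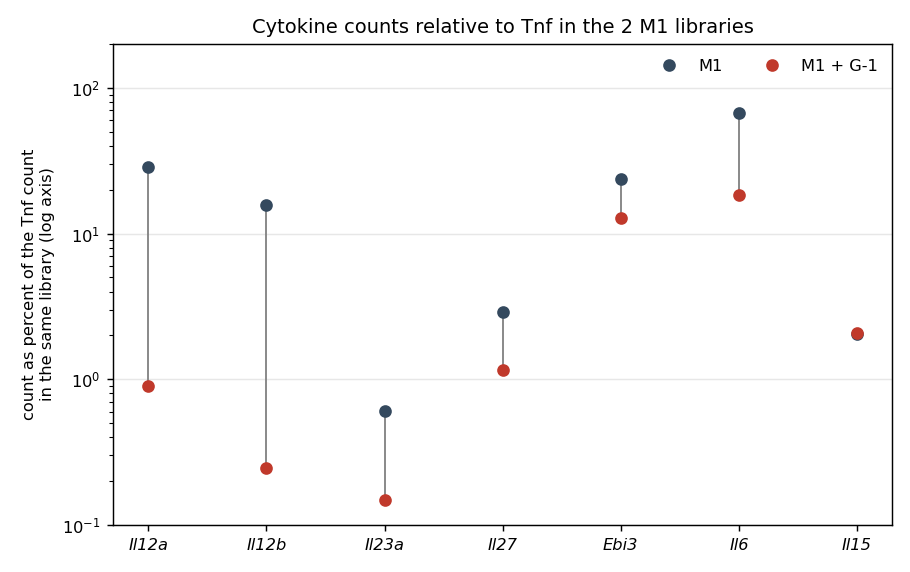
Count of each gene as a percent of the Tnf count in the same library, on a log axis, in the M1 library (dark blue) and the M1 library with G-1 (red), joined by a line. Il10 is left out because it had 0 counts with G-1. Il12a goes from 28.5% to 0.901% and Il12b from 15.7% to 0.244%, whereas Il15 stays at 2.03% and 2.07%.

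Outside M1, the same ratio to Tnf was 3.0-fold lower with G-1 for Ebi3 in M0 (2.40 to 3.76) and 1.30-fold lower in M2 (1.17 to 1.46). For Il15 it was 4.02-fold lower in M0 (3.10 to 5.21) and 1.24-fold lower in M2 (1.05 to 1.45). Il12a, Il12b and Il23a gave no ratio there, with at most 1 count in a library.

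Per kilobase of exon, which allows genes to be compared, Tnf led both M1 libraries with 266 CPM per kb without G-1 and 379 (378.5) with it. Without G-1 it was followed by Il6 at 121, Il12a at 90.7, Ebi3 at 89.8, Il12b at 34.9, Il27 at 12.4, Il15 at 4.22, Il23a at 1.95 and Il10 at 1.07, where Il12a and Ebi3 did not differ beyond counting error. With G-1 the order was Ebi3 at 69.1, Il6 at 47.0, Il27 at 7.08, Il15 at 6.10, Il12a at 4.08, Il12b at 0.771 and Il23a at 0.676, and the last pair did not differ beyond counting error. Il12a moved from the third to the sixth place. Ebi3 led the M0 and M2 libraries, at 95.2 and 65.9 CPM per kb.

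The balance of the chains was read from the same per-length levels. Il12a over Il12b was 2.60 in M1 and 5.30 with G-1. Il12b over Il23a was 17.9 and 1.14. Without G-1 p40 transcripts thus exceeded those of p19, and with G-1 both were near the same low level.

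Ebi3 over Il27 was 85.1 in M0, 7.26 in M1, 9.75 in M1 with G-1, 124 in M2 and 53.8 in M2 with G-1. Ebi3 over Il12a was 0.989 in M1 and 16.9 with G-1. Ebi3 exceeded its IL-27 partner in every library with at least 20 counts of Il27. In TECs Il23a was counted but Il12b, its partner chain, was at 0, which allows up to 3 counts per library.

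The M1 libraries, given LPS with interferon-γ, were also compared with the M0 libraries. Without G-1, Il12a was at least 1611-fold and Il12b at least 888.6-fold higher in M1, Il23a at least 34.4-fold, Il27 12.3-fold (8.88 to 17.4) and Tnf 95.4-fold (82.3 to 111). Il6 had 1 and 11531 counts, a ratio of 11430 with a counting interval of 2051 to 451500. Il10 was 3.32-fold lower (2.44 to 4.58) and Il15 3.01-fold lower (2.67 to 3.41). Ebi3 stood at 1.05-fold (1.0 to 1.09), a log2 value of 0.07 that was -0.08 with scaling by total counts. Of 9 measured genes 6 were called higher and 2 lower, where 16.8% and 17.4% of all genes measured were. Il12a, Il12b, Il23a and Il6 had at most 1 count in M0 and were measured only through M1, so they could not be called lower. The study's methods list the pairs under separate numbers without saying whether they were sequenced apart, and such a difference could not be told apart from the stimulus.

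Under G-1, where M1 with G-1 was set against M0 with G-1, 8 of 8 measured genes were called higher and 0 lower (17.7% and 19.7% of all genes measured). Il12a, Il12b, Il23a, Il6 and Il27 had at most 13 counts in M0 with G-1 and were measured only through M1 with G-1. These genes could therefore not be called lower. Il12a was at least 79.7-fold, Il12b at least 21.6-fold and Il23a at least 13.1-fold higher, Il27 23.8-fold (13.7 to 45.2) and Tnf 153-fold (132 to 179). Ebi3 was 2.74-fold higher (2.57 to 2.93) and Il15 2.19-fold higher (1.88 to 2.55). This comparison carried the length trend as well, with a median log2 fold of 0.81 over the shortest genes and -0.77 over the longest. With the trend subtracted, Tnf was 98.4-fold and Il27 12.1-fold higher, the bounds were 45.1-fold for Il12a, 15.9-fold for Il12b and 7.46-fold for Il23a, and the log2 values of Ebi3 and Il15 were 0.56 and 0.76, both under 2-fold. Il10, at 5 and 0 counts, was not measured.

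**Figure D4:**
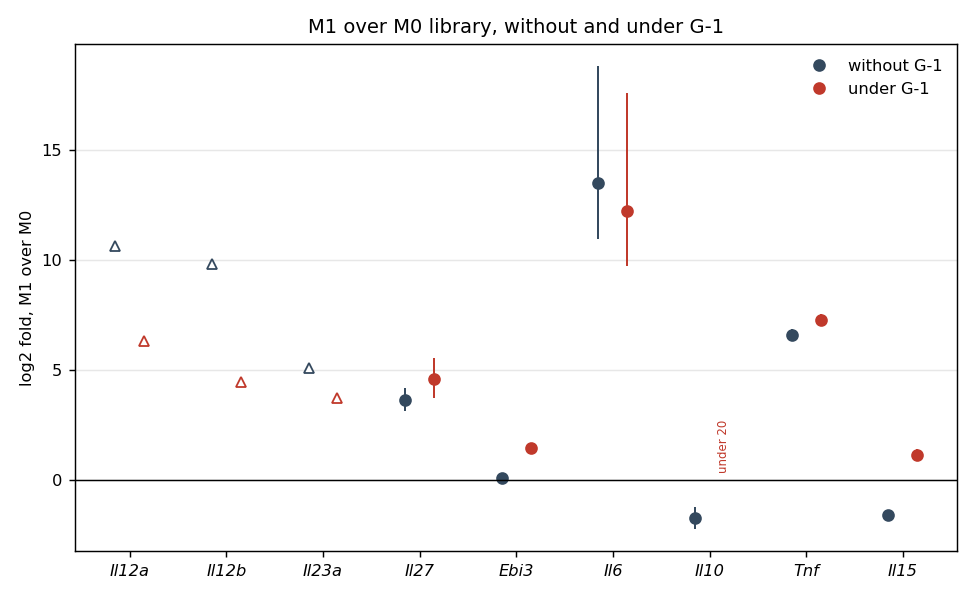
Log2 fold of M1 over M0 for each gene, without G-1 (dark blue) and under G-1 (red), with exact 95% counting intervals. Open triangles are lower bounds, since the M0 library had 0 counts and was set to 3. The bounds of Il12a stand at 10.65 without G-1 and at 6.32 under it, while Tnf stands at 6.58 and 7.26.

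The M2 libraries, given IL-4, differed from M0 by smaller folds than M1 did for the genes measured, except for Ebi3 without G-1 (1.57-fold lower in M2). Here too, separate sequencing could not be told apart from the stimulus. In M2 against M0, Tnf was 5.85-fold higher without G-1 (5.0 to 6.88) and 3.51-fold higher under it (2.97 to 4.16), and Il27 was 2.29-fold lower without G-1 (1.33 to 4.05). Of 5 measured genes 1 was called in each direction without G-1 (7.7% higher and 6.64% lower over all genes), and under G-1 1 of 4 was called higher and 0 lower (6.7% and 6.11%).

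A model over the 6 macrophage libraries took the differences between the G-1 folds of the 3 states as its error. With edgeR's quasi-likelihood test and state and G-1 as terms, 0 of 11921 genes passed an adjusted p of 0.05 for G-1 (0.0% in each direction), 1634 had an unadjusted p under 0.05, and DESeq2 called 320 higher and 468 lower. The members with the smallest edgeR adjusted p were Il12b (log2 fold change -5.22 ± 0.53 SE, 0.115), Il10 (-5.26 ± 0.75, 0.117; lower in 3 of 3 pairs) and Il12a (-4.21 ± 0.50, 0.144). For both IL-12 chains this value comes from the M1 pair, since the other states had at most 1 count. Their SE and adjusted p therefore do not measure differences between states and carry no replication. DESeq2 gave Il10 an adjusted p of 1.78e-07. Without the M1 pair, edgeR called 3 of the 5 members tested lower, Il10 (adjusted p = 0.0151), Ebi3 (0.0225) and Il15 (0.0442), where 556 of 11608 genes were called lower and 422 higher. Without the M0 pair the edgeR adjusted p was 0.1205 for Il10, 0.799 for Ebi3 and 0.967 for Il15. Without the M2 pair it was 0.0707, 0.984 and 0.9995. The calls of these genes thus depended on which pair was left out. For Tnf the log2 fold change over all 3 states was -0.01 ± 0.34 with an edgeR adjusted p of 0.993.

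For M1 over M0 the same edgeR model called 5 of the 9 members higher at an adjusted p of 0.05 (4.97% of all genes were called higher and 4.92% lower): Il6 (0.00348), Tnf (0.00497), Il12b (0.005), Il12a (0.00739) and Il27 (0.0174). Tnf had a log2 fold change of 6.98 ± 0.53 and Il27 of 4.01 ± 0.57. Il23a had an adjusted p of 0.0511, Il10 of 0.175, Ebi3 of 0.25 and Il15 of 0.903. Il6, Il12a and Il12b had at most 1 count in each M0 library and entered the test through M1, so they could only be called higher. The libraries without and with G-1 served as replicates of a state, though Il12b differed 39.3-fold between those of M1. Whether M0 and M1 were sequenced apart is not stated, and this could not be told apart from the stimulus. For M2 over M0 0 genes were called (814 at an unadjusted p under 0.05, and 67 higher and 106 lower by DESeq2), Tnf among them with 2.21 ± 0.43 and an edgeR adjusted p of 0.459, against 0.000216 by DESeq2.

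Genes around the cytokines were read from lists of known roles, also chosen with earlier results of these data known. The counts of the lists in the M1 pair stand beside 12.1% lower and 9.44% higher over all genes measured. Of 13 receptor chains 10 were measured in the M1 pair, with 3 lower with G-1 and 0 higher: Il6ra, the IL-6 receptor (3.17-fold, 2.60 to 3.89), Il12rb1, shared by the IL-12 and IL-23 receptors (2.59-fold, 2.07 to 3.27), and Il23r (2.42-fold, 1.93 to 3.06). Il6st, the gp130 subunit, was 1.65-fold lower, but had a log2 value of 0.18 with the length trend subtracted. Il6ra was lower in all macrophage pairs, by 3.62-fold in M0 and 3.02-fold in M2.

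Of 9 JAK and STAT genes 2 were called lower in the M1 pair, the kinase gene Jak2 (2.67-fold, 2.60 to 2.74) and Stat4, the STAT activated by IL-12 (2.49-fold, 1.84 to 3.43). Stat3, activated by IL-6 and IL-10, was 1.90-fold lower. With the length trend subtracted the median log2 fold of the list went from -0.46 to -0.08, with Jak2 at -1.08, Stat4 at -1.41 and Stat3 at -0.39. Stat4 was also lower with G-1 in M0 (3.91-fold) and in M2 (3.87-fold).

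Of 15 transcription factors, with counts near the shares of all genes (12.1% lower and 9.44% higher), 1 was called higher in M1, Irf1 (2.07-fold, 1.97 to 2.18), and 2 lower: Rel, the NF-kappaB subunit c-Rel known to drive Il12b (2.80-fold, 2.61 to 3.02), and Nfkbiz, a nuclear IκB protein known to be needed for Il6 and Il12b induction (2.64-fold, 2.53 to 2.77). Cebpd was 1.81-fold lower. Irf1 went the other way in the remaining macrophage pairs, 5.79-fold lower in M0 and 2.47-fold lower in M2. With the length trend subtracted Rel stood at a log2 value of -0.79 and Nfkbiz at -1.24.

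Of 9 genes for proteins that control mRNA decay, 1 was called in M1, also near the share of all genes (12.1% lower): Zfp36l1, which binds AU-rich elements, was 4.88-fold lower (4.28 to 5.58), as it was in M0 (12.2-fold) and M2 (3.12-fold). Zc3h12a, the endonuclease Regnase-1 that cleaves Il6 and Il12b mRNA, was 1.52-fold lower. Zfp36, which encodes tristetraprolin, the destabiliser of Tnf mRNA, was 1.11-fold lower. Over these 9 genes the median was -0.18 on the log2 scale, and 0.24 with the length trend subtracted.

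Of 9 measured genes of TNF release and signalling 1 was called higher (9.44% of all genes), Traf1, an adaptor of TNF receptors, 2.33-fold higher (2.28 to 2.38). Birc3 was 1.84-fold lower. Adam17, the protease that sheds TNF from the cell, was 1.40-fold lower. Of 8 genes known to respond to IL-10 1 was called lower (12.1% of all genes), Socs3, the inhibitor of IL-6 signalling (2.13-fold, 2.08 to 2.17), and Il1rn was 1.66-fold lower.

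Among related cytokines 5 of 13 were measured in M1, with 1 called in each direction. Lta, the neighbour of Tnf that encodes lymphotoxin α, had 72 counts and 201 with G-1, 3.13-fold higher (2.38 to 4.15; 0.94 on the log2 scale with the length trend subtracted). Lif had 65 and 8 counts, 7.25-fold lower (3.47 to 17.5), and Osm was 1.45-fold lower. The median log2 folds of these lists in M1, from -0.46 for JAK and STAT genes to 0.16 for transcription factors, lay nearer to 0 than that of the IL-12 family.

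Dendritic cells also make IL-12, and their markers moved in M1. Their sum was 12.1 CPM without G-1 and 2.86 with it, with Fscn1 7.44-fold lower and 3 of 10 markers at 0 in both libraries. In M0, where Il12a and Il12b were at 0, the sum was 9.56 CPM without G-1 and 71.5 with it, and Itgax alone was measured, with 293 and 2625 counts, while 2 of 10 markers were at 0 without G-1 and 6 with it. Neutrophil markers summed to 92.4 and 39.2 CPM in M1, and all 10 T and NK cell markers were at 0. The part of these cells in the cytokine folds was not tested.

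The genes most like Il12b over the 6 macrophage libraries, by Pearson's r of log2(CPM + 1) among 10411 genes, were Ism1 (r = 0.9999), Nhs (0.9989), Ccser1 (0.9988), Aldh1l2 (0.9984) and Tjp1 (0.9979). All stood at 4.44 to 14.8 CPM in M1, at 0.348 to 0.845 CPM in M1 with G-1 and at most 0.143 CPM elsewhere in macrophages. Their likeness rests on the M1 library. For Tnf they were Thg1l (0.9946), Dtwd1 (0.9943), Trub2 (0.9929), Cd38 (0.9922) and Immp1l (0.99). Of these Cd38, which encodes a surface enzyme that consumes NAD, stood at 386 CPM in M1, 293 with G-1 and 23.8 in M2. Its log2 fold in the M1 pair was -0.20, where that of Tnf was 0.71. Over the macrophage libraries Tnf ranged from 4.68 to 620 CPM. Thg1l ranged from 6.08 to 14.1 CPM and Dtwd1 from 3.22 to 12.25. Trub2 ranged from 19.1 to 36.3 CPM and Immp1l from 6.27 to 12.65. A high r here does not mean differences of like size. These r values describe 6 libraries that share their stimuli.

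TECs were set against the M1 macrophages they had been cultured with. Tnf in TECs reached 1.34% of its CPM in M1, and 0.928% in the libraries with G-1. Il6 reached 0.248% and 0.893%, and Ebi3 0.854% and 0.242%. The 10 macrophage markers reached a median of 1.55% (0.375 to 14.6) and of 1.25% (0.255 to 34.4), so Tnf, Il6 and Ebi3 in TECs lay within the range of those markers except for Il6 without G-1 and Ebi3 with G-1, which lay under it. Il15 reached 12.3% and 18.7%, also within the range of those markers. Il23a reached 349% and 931%, above that range. Ebi3 and the macrophage markers were both lower in the TEC library with G-1-pretreated macrophages, the markers summing to 219 and 140 CPM (139.5). The part of macrophage RNA in the TEC values was not tested.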

How the data were processed

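RNA was measured in 8 libraries of 3 pooled samples each. Per the labels, libraries were made with the VAHTS Universal V6 kit. The authors deposited raw read counts per gene symbol; the submitters' notes name mm10 and DESeq2, while aligner, counter and strand setting were not given in the sources used here. Exonic lengths, known for 95.2% (95.15%) of symbols, and 3′ UTRs were from GENCODE M21, promoters from RefSeq on GRCm38.p6. The members and lists were chosen with earlier results of these data known.

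Folds used TMM factors of edgeR 4.0.16 (R 4.3.3) within a pair, with exact 95% binomial intervals from scipy 1.17.1 (Python 3.11.15, numpy 2.4.6, pandas 2.3.3), a minimum of 20 counts, a call at 2-fold and a floor of 3 counts. Pairs carry no p-value. The length trend was a running median over 501 genes. edgeR's quasi-likelihood test (filterByExpr, Benjamini-Hochberg) took state and G-1 as terms. The SE given with it is the size of the log2 fold change divided by the square root of the F statistic. Ratios within a library used exact conditional intervals. Folds and the edgeR test were tested on simulated data.

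Named were all members, up to 4 genes per list with the largest fold in the M1 pair, the 5 genes most like Il12b and Tnf (at least 100 counts in a library) and overlapping genes. Zfp36, Adam17 and the cell markers were named after their values were seen. Alternatives were DESeq2 1.42.0, total counts or its size factors as scaling, no filter or one of 100 counts, the length trend, Il6 as reference, and leaving out each pair.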

Additional observations from a re-analysis of the deposited data

Results flagged for a closer look

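Both flags come from a fold that had opposite directions in different cells, with counting intervals on opposite sides of 1. The difference between the pairs was not tested, since each has 1 library per group. Tnf, the cytokine that triggers TNF receptor signalling, had a log2 fold with G-1 of 0.71 in M1 and -0.70 in M2, and with the length trend subtracted the M1 value was 0.18. Il15 had log2 folds of 0.73 in M1 and 1.12 in TECs, but -1.97 in M0 and -1.01 in M2. With the length trend subtracted, the values of Il15 were 0.45 in M1 and 0.97 in TECs.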

How the results depend on the processing

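No called fold of a member changed direction under another scaling, filter or the length trend. Among values under 2-fold, scaling by total counts turned the log2 fold of Tnf in the M0 pair to -0.12 and that of Ebi3 to -0.08 in M1 over M0 and 0.10 in M2 over M0 under G-1. Il15 in the M2 pair fell under 2-fold with total counts, and all counts of members called in the M0, M1 and M2 pairs stayed within 1.5 times (2 of 5 lower in M2 with total counts). In TECs the count of members called higher was 0 with the length trend subtracted and 0 with a filter of 100 counts, which also left 0 called lower there and 0 lower in M2 over M0. For G-1 over the 3 states, genes called were 320 higher and 468 lower with DESeq2 and 12 and 13 with no filter (edgeR then gave adjusted p-values of 0.0472 to Il12b for G-1 and 0.0365 to Il23a for M1 over M0). Leaving out 1 pair gave 14 to 422 higher and 23 to 556 lower. Without the M0 pair edgeR called Il12a and Il12b (adjusted p 0.0267 and 0.0162), as without the M2 pair (0.0397 and 0.0281), while DESeq2 gave adjusted p-values of 0.948 and 0.806. Both genes had at most 1 count in each M0 and M2 library. All these values of theirs for G-1 thus rest on the M1 pair, with 1 library per group, and carry no replication. DESeq2 called 1231 higher and 1267 lower for M1 over M0 and 67 and 106 for M2 over M0. The cause of these differences was not tested. With Il6 in place of Tnf, the ratios of the M1 pair were lower with G-1 by 8.62-fold for Il12a, 17.5-fold for Il12b and 1.12-fold for Il23a. Those of Ebi3 and Il27 reversed and were higher with G-1, the ratio without G-1 being 0.504 and 0.677 times that with it. With the length trend subtracted, the ratios to Tnf were 3.19 for Il27 and 2.23 for Ebi3. No paired analysis was possible because each group has 1 library and no replicate numbers to pair, beyond the model over 6 libraries, in which state is a term. With 1 pooled library per group, all intervals cover counting error only, and the spread between samples is unknown.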
